A study of Mus musculus with 91 samples.

Results

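CD33 antisense oligonucleotide (ASO) treatment was compared with vehicle (phosphate-buffered saline, PBS) in the frontal cortex of APP/PS1 mice. The 20 arrays were chosen from the labels alone, as every frontal cortex array of genotype APPPS1 with treatment CD33 ASO (11 mice) or PBS (9 mice). The treatment text of the labels counts differently, with 14 CD33 ASO mice (13 have an array of either tissue), 8 PBS and 11 WT mice, and the titles of the arrays were followed here. They are 20 of the 91 arrays of the study and 20 of its 45 cortical arrays, and each array is a separate mouse. The study measured total RNA of the frontal cortex and whole hippocampus of 47 mice on Illumina bead arrays, to follow the microglial genes of an Alzheimer model after lowering CD33.

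The mice treated with CD33 ASO carried the APP/PS1 transgenes and received a CD33-specific oligonucleotide. A second group of APP/PS1 mice, here CON ASO (13 cortical arrays), received a non-target oligonucleotide. The APP/PS1 mice of the PBS group received vehicle, as did the wild-type littermates (WT PBS, 12 cortical arrays). The mice were 18 weeks old when infusion of 50 ug oligonucleotide per day began, it ran for 14 days, and tissue was taken at 22 weeks. An osmotic pump and a cannula into the right lateral ventricle were used in all 4 groups, including the vehicle groups, and the left hemisphere was dissected. The animals were housed singly after surgery. The transgenes are expressed from the Thy1 promoter of neurons, a known property of this line, and a Thy1 probe on the array read higher in APP/PS1 mice than in WT mice.

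CD33 is a sialic acid-binding receptor of myeloid cells. In the brain it is made by microglia, where it signals through inhibitory motifs, and variants at the human gene are linked to Alzheimer risk. An ASO is a short synthetic nucleic acid that binds its complementary messenger RNA and can cause that RNA to be cut. In APP/PS1 mice, which deposit amyloid in the cortex, microglia around plaques switch on genes such as Cst7, Trem2 and Clec7a. Bulk tissue was measured, so fewer cells of a type and less RNA per cell cannot be told apart in any result below.

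Values are log2 signals after background correction and normalisation of the 45 cortical arrays. A probe was called changed at a limma adjusted p under 0.05. Between 13193 and 13802 probes were detected on the CD33 ASO arrays, against 13257 to 13650 on the PBS arrays. The tissue label was checked against regional markers. Of 6 hippocampal genes, 4 read lower in all 20 cortices than in any hippocampus of the same groups, and 2 overlapped. The cortical list was mixed. Of 6 tested cortical excitatory genes, 3 (Tbr1, Cux2 and Lmo4) read higher in all 20 cortices than in any hippocampus of the same groups. Rorb and Slc17a7 overlapped between the tissues, and Fezf2 went the other way, at 8.74 to 9.53 in cortex against 9.88 to 10.50 in hippocampus. Tbr1, a transcription factor of cortical projection neurons, read 9.47 to 10.17 in these cortices, against 8.14 to 8.98 in the hippocampi of the same groups. Prox1, a marker of dentate granule neurons, read 6.02 to 6.82 in cortex, against 8.68 to 9.95 in hippocampus. C1ql2, another dentate gene, read 5.82 to 7.38 in cortex, against 12.10 to 12.99 in hippocampus.

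In the CD33 ASO group, 2 arrays stood apart from the rest on the genes given below. The array labelled CD33 ASO replicate 3 read 14.10 for Thy1, against 14.76 to 14.92 on 9 other CD33 ASO arrays, 14.79 to 14.84 in PBS mice and at most 14.23 in WT mice. Its genes of plaque-associated microglia were also low. Cst7, a protease inhibitor switched on around plaques, read 5.32 there, against 9.47 to 10.65 on those 9 arrays, 9.00 to 10.57 in PBS mice and at most 5.18 in WT mice. Trem2, a lipid-sensing microglial receptor, read 9.37, where WT mice reached at most 9.05. The hippocampus of the same mouse read 14.01 for Thy1 and 5.37 for Cst7. The array therefore goes against its genotype label on these genes, and values without it are given for the microglial genes and wherever leaving it out changed a call of a named gene.

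The array labelled CD33 ASO replicate 11 carried inflammatory genes that the rest of the group did not. Lcn2, a secreted iron-binding protein of neutrophils and reactive astrocytes, read 11.73 there, against 4.87 to 6.75 on the 9 other arrays and 4.60 to 5.76 in PBS mice. S100a8, a neutrophil protein, read 8.60, against 4.81 to 6.46 on the other arrays. H2-Aa, a chain of the class II antigen-presenting complex, read 10.14, against 5.64 to 6.78 on the others and 5.09 to 8.37 in PBS mice. On this array 334 probes lay more than 1 log2 unit from the mean of the group's other arrays, 297 of them higher. On replicate 3 the count was 207, with 197 of them lower. The other CD33 ASO arrays had 10 to 63 such probes, and the PBS arrays 2 to 88.

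Of 14346 probes tested, which stand for 9958 genes and 815 probes without a gene name, 195 were called changed between CD33 ASO and PBS, or 1.36%. Of these, 74 probes were higher (0.516% of all tested) and 121 were lower (0.843%). They belong to 69 genes that rose and 99 genes that fell, with 8 probes left unnamed. Most changes were small. The median absolute change among the called probes was 0.34 on the log2 scale, 33 probes passed 0.5 and 3 passed 1. At an unadjusted p under 0.05 there were 1768 probes, or 12.3% of those tested. Gene lists below count a gene by its brightest probe, by which 1.6% of the 9958 genes were called.

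Without replicate 3 the comparison called 192 probes (76 higher, 116 lower), of which 171 were among the 195. Without replicate 11 it called 141 probes (52 higher, 89 lower), 133 of them among the 195. The count was most sensitive to CD33 ASO replicate 8 and PBS replicate 3, with 115 probes left without the first and 126 without the other. Without replicates 3 and 11 together, a choice made after seeing the data, 125 probes were called.

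The target gene came first. Cd33 read 5.05 at the lowest, 6.47 at the median and 7.08 at the highest in the 11 CD33 ASO mice, against 6.72, 7.09 and 7.53 in the 9 PBS mice. The groups overlapped, but 9 of the 11 CD33 ASO arrays lay below every PBS array. The 2 exceptions were replicate 10 at 6.87 and replicate 11 at 7.08. The log2 change was -0.73 ± 0.156 (SE; 95% interval -1.05 to -0.42; limma adjusted p = 0.00729), so the mean signal fell by 39.8%. Without replicate 3, the lowest array and the only one of the 11 on which Cd33 was not detected, the change was -0.60 (adjusted p = 0.0096). Without replicate 11 it was -0.81 (adjusted p = 0.00192).

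Cd33 also set the CD33 oligonucleotide apart from the non-target one. CON ASO mice read 6.61 to 7.54 with a median of 7.09, and their change against PBS was -0.02 (adjusted p = 0.973). The direct difference between CD33 ASO and CON ASO was -0.71 ± 0.142 (SE; adjusted p = 0.0147). WT mice, which lack plaques, read 5.65 to 6.64. Of 12 tested genes that encode CD33 relatives and signalling partners, 2 fell, Cd33 itself and Mag, a myelin protein of the same lectin family (-0.34, adjusted p = 0.0233). The median change of the 12 was -0.08, against 0.0031 over all genes. With CON ASO, 1 of the 12 fell against PBS, a gene other than Cd33, beside 1.65% of all genes. Between CD33 ASO and CON ASO directly, Cd33 was the 1 of the 12 that was called, so Mag did not separate them.

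The largest change of the comparison was in Avil, which encodes advillin, an actin-binding protein of the villin family known from sensory neurons. Avil read 5.73, 6.47 and 7.49 (lowest, median and highest) in CD33 ASO mice, against 4.72, 4.84 and 5.24 in PBS mice. It was detected on 11 of 11 CD33 ASO arrays and on 0 of 9 PBS arrays, and the groups did not overlap. Because no PBS array lay above background, its level was at least 1.95-fold higher in CD33 ASO mice (fitted log2 change 1.56 ± 0.135, SE; adjusted p = 2.25e-11). CON ASO mice read 4.60 to 5.26 and were detected on 0 of 13 arrays. Among these 3 groups, Avil met the detection filter of at least 9 cortical arrays through the CD33 ASO arrays alone. Its adjusted p-values are therefore those of a probe kept through the group where it was high. The difference between CD33 ASO and CON ASO was 1.59 (adjusted p = 3.25e-13). Replicates 3 and 11 did not stand outside the other CD33 ASO arrays for Avil, and replicate 11 read 5.92.

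**Figure D1:**
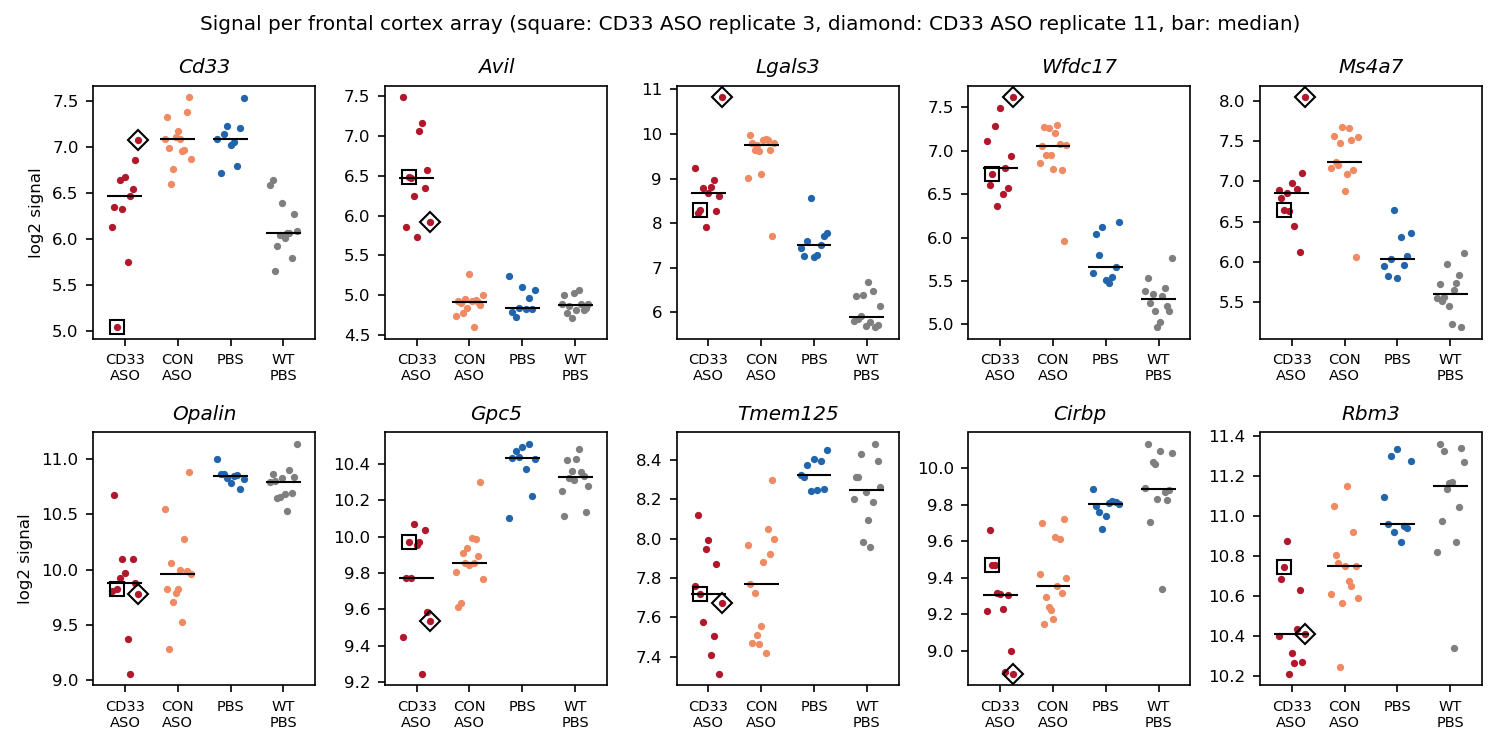
Log2 signal of 10 genes on every cortical array, by group from left to right, CD33 ASO, CON ASO, APPPS1 PBS and WT PBS. Each point is a mouse, the bar is the group median, the square is CD33 ASO replicate 3 and the diamond is replicate 11. Avil in CD33 ASO mice sits between 5.73 and 7.49, above all PBS mice, and 9 of 11 Cd33 values lie below the PBS range.

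Genes of phagocytes made up the next largest rises, and the 3 described here also rose in CON ASO mice. Lgals3, which encodes galectin-3, a lectin of activated phagocytes, read 7.91, 8.68 and 10.82 (lowest, median, highest) in CD33 ASO mice and 7.23, 7.51 and 8.57 in PBS mice. The groups overlapped through PBS replicate 4, and replicate 11 was the highest array. The change was 1.19 ± 0.251 (SE; adjusted p = 0.00737), and without replicate 11 it was 0.98 (adjusted p = 0.00871). CON ASO minus PBS was 1.91 for Lgals3 (adjusted p = 3.15e-06), and CD33 ASO minus CON ASO was -0.72 and did not pass the test (adjusted p = 0.248).

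Wfdc17, a small secreted protein of activated macrophages, read 6.36, 6.80 and 7.61 in CD33 ASO mice, against 5.48, 5.66 and 6.18 in PBS mice. All CD33 ASO arrays lay above all PBS arrays, and the change was 1.14 ± 0.142 (SE; adjusted p = 1.21e-06). With CON ASO it was 1.19. Ms4a7, a membrane protein of macrophages at the brain borders, read 6.13, 6.86 and 8.04 in CD33 ASO mice, against 5.80, 6.04 and 6.65 in PBS mice. Its change was 0.75 ± 0.165 (SE; adjusted p = 0.00953), beside 1.14 for CON ASO minus PBS. Across the array, 6 probes (0.0418%) had every CD33 ASO mouse above every PBS mouse and 10 (0.0697%) had every one below, and 15 of these probes were among the 195 calls.

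The 2 oligonucleotide comparisons share the PBS arrays, so their overlap is not independent. CON ASO minus PBS called 377 probes (2.63%). The calls in common numbered 91, which is 46.7% of the CD33 ASO calls and 24.1% of the CON ASO calls.

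Other genes of lipid-laden phagocytes and border macrophages were read beside these. Of 10 tested genes of lipid-laden phagocytes, Lgals3 was the 1 that rose. Plin4, a lipid droplet coat protein, had a change of 1.09 that did not pass (adjusted p = 0.0891), beside 2.09 for CON ASO. Gpnmb, a glycoprotein of lipid-laden macrophages, had 0.48 (adjusted p = 0.248), beside 1.33 for CON ASO. Its direct difference between CD33 ASO and CON ASO was -0.85 (adjusted p = 0.017). Of 8 tested border macrophage genes, Ms4a7 was the 1 that rose. Fcna, a ficolin of macrophages, had 0.49 (adjusted p = 0.105) beside 1.36 for CON ASO, and CD33 ASO minus CON ASO was -0.87 for it (adjusted p = 0.00102). Stab1 and Mrc1, scavenger receptors of the same cells, had 0.25 and -0.15 and did not pass.

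Microglial lists held few or no calls. Of 15 tested pan-microglial genes, 0 passed the limma test and 0 had an unadjusted p under 0.05, and their median change was -0.10. Without replicate 3 that median was -0.00015, without replicate 11 it was -0.17, and without both it was -0.02. Of 16 homeostatic genes, 0 passed and 1 had an unadjusted p under 0.05, with a median of -0.09, or 0.01 without replicate 3. Of 28 genes of plaque-associated microglia, 1 rose (Lgals3) and 0 fell. Their median was -0.11, or -0.03 without replicate 3 and -0.14 without replicate 11. At an unadjusted p under 0.05 this list held 7 genes, 5 of them lower. The same 3 lists had medians of 1.55, 0.90 and 1.29 for PBS minus WT in the same fit.

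Single microglial genes moved with replicate 3 in the same way. Cst7 had a change of -0.56 (adjusted p = 0.539), or -0.15 without that array. Trem2 had -0.29 (adjusted p = 0.514), or -0.10 without it. Tyrobp, the signalling adaptor of Trem2, had -0.20 (adjusted p = 0.68), or -0.05 without it. Gpr34, a lysophospholipid receptor of homeostatic microglia, came closest to the threshold at -0.46 (adjusted p = 0.0579), and was -0.34 without replicate 3 (adjusted p = 0.08).

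Lists of blood-borne and inflammatory cells moved with replicate 11, and the interferon list with replicate 3 as well. The 4 tested genes of monocytes and neutrophils had a median change of 0.52 with 0 calls, and 0.15 without replicate 11. The 20 interferon-stimulated genes had 0.16 with 0 calls, -0.05 without replicate 11, 0.27 without replicate 3 and 0.05 without both. The 15 antigen presentation genes had 0.14 with 0 calls, and -0.15 without replicate 11. At an unadjusted limma p under 0.05 these 3 lists held 2, 0 and 0 genes with all 11 arrays. Of the 4 genes tested in the lymphocyte list 0 passed and 1 had an unadjusted p under 0.05, with a median of -0.04.

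**Figure D2:**
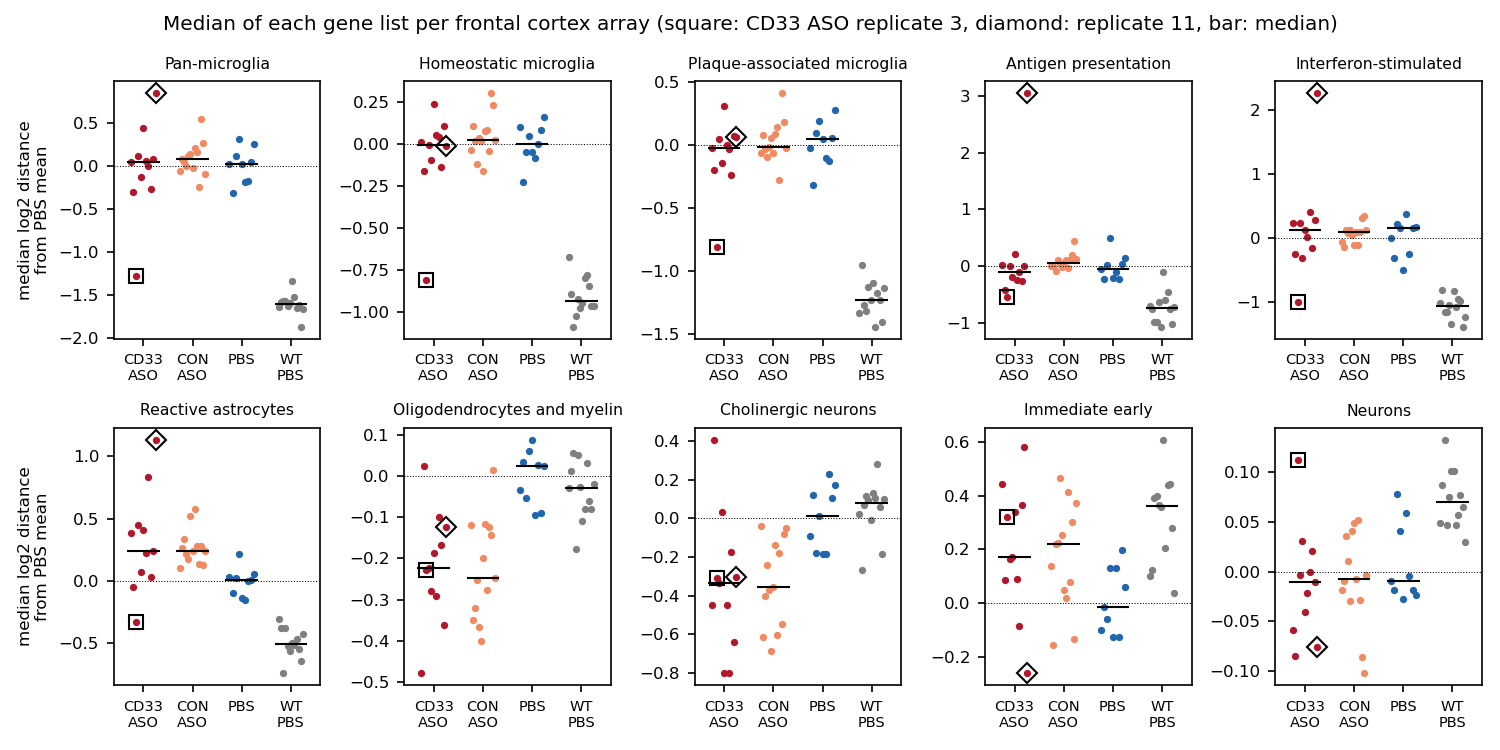
Each point is a cortical array and gives the median, over the tested genes of a list, of its log2 signal relative to the PBS mean of each gene; groups run from left to right as CD33 ASO, CON ASO, APPPS1 PBS and WT PBS for 10 lists. Squares mark CD33 ASO replicate 3 and diamonds replicate 11; the oligodendrocyte list spans -0.48 to 0.03 in CD33 ASO mice and -0.09 to 0.09 in PBS mice.

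Several genes of myelin fell. Opalin, a membrane protein of myelinating oligodendrocytes, read 9.06, 9.88 and 10.68 (lowest, median, highest) in CD33 ASO mice, against 10.73, 10.84 and 11.00 in PBS mice. No array of the CD33 ASO group reached the PBS range, with replicate 2 nearest to it. The change was -0.98 ± 0.139 (SE; adjusted p = 3.49e-05), so the signal fell by 49.4%. With CON ASO it was -0.87 (adjusted p = 8.28e-05), and the difference between the oligonucleotides was -0.11 (adjusted p = 0.8).

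Of 16 tested oligodendrocyte and myelin genes, 5 fell and 0 rose, against 0.934% of all genes that fell by the same rule on the brightest probe of each gene. The median change of the 16 was -0.22, and 10 of them, each lower, had an unadjusted p under 0.05. Besides Opalin these were Mog (-0.52, adjusted p = 0.0114), the glycoprotein on the outer face of myelin, and Mag, given above. Tspan2, a tetraspanin of oligodendrocytes, had -0.31 (adjusted p = 0.00227), and Cldn11, the tight junction protein of myelin, had -0.24 (adjusted p = 0.0122). Without replicate 8, 4 of the 16 fell and Mag no longer passed (adjusted p = 0.0553). Mbp, the basic protein of compact myelin, had -0.11 and did not pass (adjusted p = 0.0798). For CON ASO minus PBS, 7 of the 16 fell, beside 1.65% of all genes, and the median was -0.26.

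The array medians of this list ran from -0.48 to 0.03 in CD33 ASO mice and from -0.09 to 0.09 in PBS mice, so the groups overlapped for the list as a whole. Olig1, a transcription factor of the oligodendrocyte lineage, was the 1 that fell of 6 precursor genes (-0.20, adjusted p = 0.0201). Of 13 tested pan-neuronal genes 0 passed the limma test and 1 had an unadjusted p under 0.05, with a median of -0.02. Of 12 astrocyte genes 0 passed and 1 had an unadjusted p under 0.05, with a median of 0.02. Of 19 endothelial and pericyte genes 0 passed and 7 had an unadjusted p under 0.05, with a median of -0.04.

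Other genes fell with no overlap between the groups, or nearly so. Gpc5, a heparan sulphate proteoglycan of the cell surface, read 9.25, 9.77 and 10.07 in CD33 ASO mice, against 10.10, 10.43 and 10.51 in PBS mice. The change was -0.62 ± 0.0789 (SE; adjusted p = 1.42e-06), and 3 of its 3 probes were called. Tmem125, a membrane protein, read 7.32, 7.72 and 8.12 in CD33 ASO mice, against 8.24, 8.32 and 8.45 in PBS mice. Its change was -0.61 (adjusted p = 6.72e-05), beside -0.56 for CON ASO. Cstad had -0.55 (adjusted p = 0.00246) with no overlap. Prr18 had -0.58 (adjusted p = 4.14e-05), and its highest CD33 ASO array, replicate 2 at 11.28, lay inside the PBS range.

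Cirbp and Rbm3, which encode RNA-binding proteins induced by mild cold, fell together. Cirbp read 8.88, 9.31 and 9.66 in CD33 ASO mice, against 9.67, 9.80 and 9.89 in PBS mice. The groups did not overlap, although replicate 2 came within a small margin, and the change was -0.54 ± 0.0865 (SE; adjusted p = 0.000161). Rbm3 read 10.21, 10.41 and 10.88 in CD33 ASO mice, against 10.87, 10.96 and 11.34 in PBS mice. The highest CD33 ASO array, replicate 4, lay just inside the PBS range, and the change was -0.60 ± 0.104 (SE; adjusted p = 0.00079). CON ASO minus PBS was -0.39 for Cirbp (adjusted p = 0.00513) and -0.34 for Rbm3 (adjusted p = 0.0543).

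Output genes of the circadian clock were looked at after their values had been seen. Of 13 tested clock genes 2 fell, Dbp and Ciart, and 0 rose, and the median of the 13 was -0.02, or -0.04 without replicate 3. Dbp, a transcription factor driven by the clock, read 12.37, 12.77 and 13.00 in CD33 ASO mice, against 12.89, 13.04 and 13.12 in PBS mice (-0.30, adjusted p = 0.0209). Ciart, a repressor within the clock, had -0.48 at both of its probes (adjusted p = 0.00737 and 0.0216). Nr1d1, which encodes the repressor REV-ERB alpha, had -0.51 at a probe that passed (adjusted p = 0.0216) and -0.39 at its other probe (adjusted p = 0.063). Per2, which encodes a repressor of CLOCK and BMAL1, had 0.27 and did not pass (adjusted p = 0.205). Without replicate 8 only 1 of the 13 was called on the brightest probe, and without replicates 3 and 11 together 0 were. With CON ASO, 3 of the 13 fell against PBS, beside 1.65% of all genes, and 0 rose, with a median of 0.04. Between CD33 ASO and CON ASO directly, 0 of the 13 were called.

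CLOCK and BMAL1 bind the E-box CACGTG, and the Ciart promoter is shown because its start lies close to several copies. The window is the 250 bases before the RefSeq start of Ciart, chr3:95882229-95882478 on the minus strand of GRCm38.p6, with the E-boxes in capitals:
Ciart: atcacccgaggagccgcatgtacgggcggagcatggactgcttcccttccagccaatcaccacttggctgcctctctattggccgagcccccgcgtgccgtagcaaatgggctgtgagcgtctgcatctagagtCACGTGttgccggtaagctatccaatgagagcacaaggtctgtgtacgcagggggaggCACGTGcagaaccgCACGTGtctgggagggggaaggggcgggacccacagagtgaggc
The 3 copies begin 116, 58 and 44 bases before the start. CACGTG, which reads the same on both strands, was found in 1978 of 32851 such windows (6.02%), and 20 windows (0.0609%) held 3 or more copies. The windows of Dbp and Nr1d1 held no copy of these letters. Binding was not measured here.

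Genes of the extracellular matrix were among the smaller rises. Col1a1, the main chain of fibrillar collagen I, read 5.43, 6.03 and 6.46 in CD33 ASO mice, against 5.23, 5.44 and 5.73 in PBS mice, in which 2 of 9 arrays detected it. The groups overlapped, and the change was 0.53 ± 0.121 (SE; adjusted p = 0.0132). Of 21 tested collagen genes, a list drawn up after the values were seen, 4 rose and 0 fell. The others were Col7a1, the collagen of anchoring fibrils, and Col4a2 and Col18a1 of basement membranes, each at 0.45 (adjusted p = 0.0161, 0.0177 and 0.0316). Without replicate 8, Col18a1 no longer passed (adjusted p = 0.0668). The median of the 21 was 0.09, and 0.663% of all genes rose by the same rule.

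Ecm1, a secreted matrix protein, read 8.43, 8.72 and 9.65 in CD33 ASO mice, against 8.02, 8.20 and 8.73 in PBS mice, with replicates 8 and 11 highest. Its change was 0.56 (adjusted p = 0.0113). Nnmt, which methylates nicotinamide, had 0.50 (adjusted p = 0.0111). Itga11, a collagen-binding integrin subunit, had 0.53 (adjusted p = 0.0201), beside 0.75 for CON ASO. Fgfbp1, a carrier of fibroblast growth factors, had 0.58 (adjusted p = 0.0262), beside 0.60 for CON ASO. Of 19 tested genes of meninges and fibroblasts, Col1a1 was the 1 that rose, and the median was 0.09.

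Several of the smaller changes depended on single arrays. Crybb1, a crystallin known from the lens, had 0.64 (adjusted p = 0.0378) with replicates 8 and 11 highest, at 8.94 and 9.88, and within single chips its difference ran from -0.23 to 1.05. Hsf5, a member of the heat shock factor family, had 0.50 (adjusted p = 0.0386). Rxfp3, the receptor of relaxin-3, and Pglyrp1, a peptidoglycan-binding protein, each had 0.49 (adjusted p = 0.0321 and 0.0316). Spon2, a secreted spondin, had 0.49 (adjusted p = 0.0283). It was detected on 6 of 11 CD33 ASO arrays and 0 of 9 PBS arrays, so the size of its change is uncertain. Without replicate 11, Rxfp3, Pglyrp1 and Spon2 no longer passed (adjusted p = 0.0611, 0.0754 and 0.0606). Without CD33 ASO replicate 8, 8 of the 30 largest changes among called genes lost their call, these 3 with Crybb1, Hsf5, Sh3d21, Slc5a7 and Ano2. Without PBS replicate 3, 8 of the 30 lost it too, among them Itga11 and Fgfbp1. Without CD33 ASO replicate 3, every one of the 30 kept its call.

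**Figure D3:**
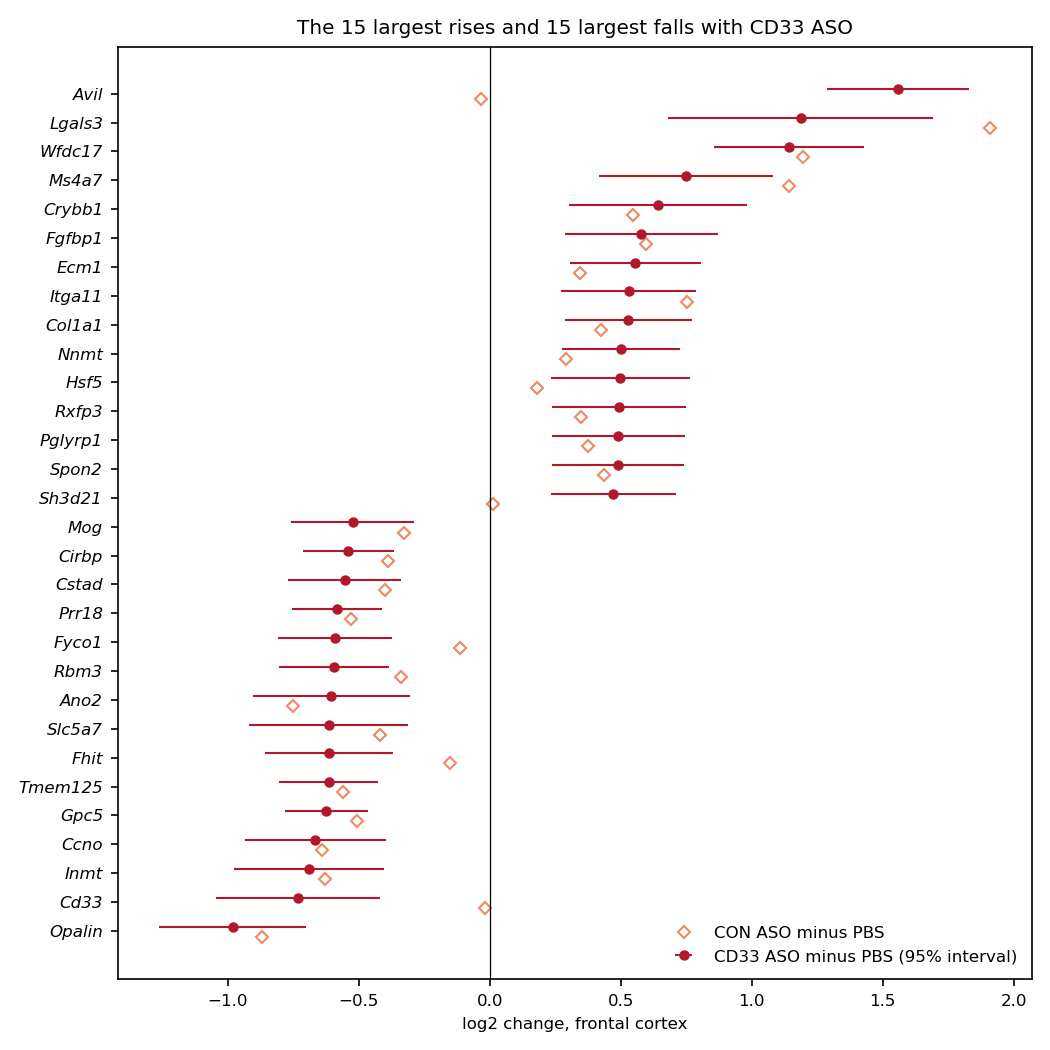
Log2 change of CD33 ASO minus PBS for the 15 largest rises and 15 largest falls among called genes, with 95% intervals, and CON ASO minus PBS of the same fit as open points. The range runs from 1.56 (Avil) to -0.98 (Opalin), and the open point of Avil lies at -0.03.

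Few stress genes passed the test. Of 14 tested genes of reactive astrocytes, Hspb1, a small heat shock protein, was the 1 that rose (0.35, adjusted p = 0.0431), and the median of the list was 0.35, beside 0.31 for CON ASO, and 8 of the 14, each higher, had an unadjusted p under 0.05. Without replicate 3, Hspb1 had an adjusted p of 0.0516, and 2 other genes of the list passed, among them Emp1, a membrane protein of reactive astrocytes, at 0.53 (adjusted p = 0.0261). Without replicate 11 or without replicate 8, 0 of the 14 passed, with an adjusted p for Hspb1 of 0.0877 and 0.0937. Gfap, the filament of reactive astrocytes, had 0.09 (adjusted p = 0.9), or 0.27 without replicate 3. Of 15 immediate early genes, Jun rose (0.41, adjusted p = 0.0134), and the list median was 0.20. Arc, a synaptic activity gene, had 0.80 and did not pass (adjusted p = 0.092).

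Lists of cell damage and stress responses were read in the same way. Of 12 tested p53 targets 1 rose, Ccng1, a cyclin induced by p53 (0.21, adjusted p = 0.0292), and the list median was 0.07. Its other 2 probes had -0.14 and -0.01 and did not pass, and without replicate 8 the brightest probe did not either (adjusted p = 0.0772). Of 9 heat shock genes Hspb1 rose, and the median was 0.13. Without replicate 8 or 11, 0 of the 9 passed. Of 14 genes of the unfolded protein response 0 passed the limma test and 4 had an unadjusted p under 0.05, with a median of 0.05. Of 11 glucocorticoid and stress targets 0 passed and 6, each higher, had an unadjusted p under 0.05, with a median of 0.17. For CON ASO minus PBS 4 of the 11 rose, where 2.63% of all tested probes were called in either direction. The median there was also 0.17, and 0 of the 11 were called between CD33 ASO and CON ASO directly. Of 23 lysosomal genes 0 passed the limma test and 0 had an unadjusted p under 0.05, with a median of -0.01. Of 7 genes of choroid plexus and ependyma 0 passed and 1 had an unadjusted p under 0.05. Ttr, the transthyretin of choroid plexus, had 0.70 and did not pass (adjusted p = 0.508).

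Of 7 tested genes of cholinergic neurons, a list drawn up after the values were seen, 2 fell. Slc5a7, the choline transporter, read 5.41, 6.14 and 7.17 in CD33 ASO mice, against 6.64, 6.80 and 7.32 in PBS mice. The groups overlapped through replicates 2, 5 and 9, and the change was -0.61 ± 0.151 (SE; adjusted p = 0.0234). Chat, which makes acetylcholine, had -0.47 (adjusted p = 0.0476), or -0.45 without replicate 3, where it no longer passed (adjusted p = 0.0731). Chat lost its call in 24 of 35 alternatives, among them median centring, the submitters' values and day as a block. Slc5a7 lost its call in 5 of 35. Slc18a3, the vesicular transporter of acetylcholine, had -0.32 and did not pass (adjusted p = 0.223). The median of the 7 was -0.32, beside -0.34 for CON ASO. Without replicate 8, 0 of the 7 passed. Striatal markers read low beside them: the 5 tested genes were all negative, none called, with 1 at an unadjusted limma p under 0.05 and a median of -0.17 for either oligonucleotide. Their part in the cholinergic values was not tested.

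The remaining large falls were spread over unrelated functions. Inmt, an indole methyltransferase, had -0.69 (adjusted p = 0.00519), and Ccno, a cyclin of multiciliated cells, had -0.67 (adjusted p = 0.00372). Ano2, a calcium-activated chloride channel, had -0.60 (adjusted p = 0.0252). For these 3 genes CON ASO minus PBS was -0.63, -0.64 and -0.75.

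The direct comparison of CD33 ASO with CON ASO called 22 probes (0.153%). Of the 195 probes called against PBS, 8 were called there as well, and they stand for 7 genes. Cd33 and Avil were described above. Fyco1, an adaptor that moves autophagosomes along microtubules, read 7.37, 8.08 and 8.31 in CD33 ASO mice, against 8.01, 8.48 and 8.69 in CON ASO mice and 8.04, 8.65 and 8.80 in PBS mice. It fell against both, by 0.48 against CON ASO (adjusted p = 0.017) and by 0.59 against PBS (adjusted p = 0.00122).

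Bcl2l2, which encodes the survival protein BCL-W, differed by a small but even amount. It read 11.46, 11.62 and 11.74 in CD33 ASO mice, against 11.72, 11.78 and 11.94 in CON ASO mice and 11.70, 11.80 and 11.89 in PBS mice. Replicates 2 and 9 reached the PBS range. The change was -0.18 against CON ASO (adjusted p = 0.00184) and -0.18 against PBS (adjusted p = 0.00122). Cdk10, a cyclin-dependent kinase, was called against PBS at 3 of its 3 probes, and at a probe with -0.41 against PBS it had -0.36 against CON ASO (adjusted p = 0.0402). Nrbp2, a pseudokinase, had -0.40 against PBS (adjusted p = 3.94e-05) and -0.24 against CON ASO (adjusted p = 0.035). Aspdh, a protein with an aspartate dehydrogenase domain, rose by 0.47 against PBS (adjusted p = 0.0124) and by 0.42 against CON ASO (adjusted p = 0.0488).

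Fhit, a dinucleoside hydrolase, lay at the margin of this comparison, at -0.61 against PBS (adjusted p = 0.00286) and -0.46 against CON ASO (adjusted p = 0.0545). Sh3d21, a protein with SH3 domains, did likewise with 0.47 against PBS (adjusted p = 0.0266) and 0.46 against CON ASO (adjusted p = 0.0519). App, whose human form is a transgene of this line, had -0.03 against PBS (adjusted p = 0.895).

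Surgery day and chip were the batches that the labels give, and each of the 4 days and 6 chips held both groups. A day held 2 to 4 CD33 ASO and 2 or 3 PBS arrays, and single chips also held few of each. The differences within them therefore rest on few mice. Within single chips the Cd33 difference ran from -1.30 to -0.50, and within days from -0.96 to -0.38. The Avil difference ran from 1.02 to 2.24 within chips, and that of Wfdc17 from 1.02 to 1.27. Opalin ran from -1.47 to -0.76 within chips and Gpc5 from -0.86 to -0.40. Lgals3 ran from 0.39 to 1.95 within chips.

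**Figure D4:**
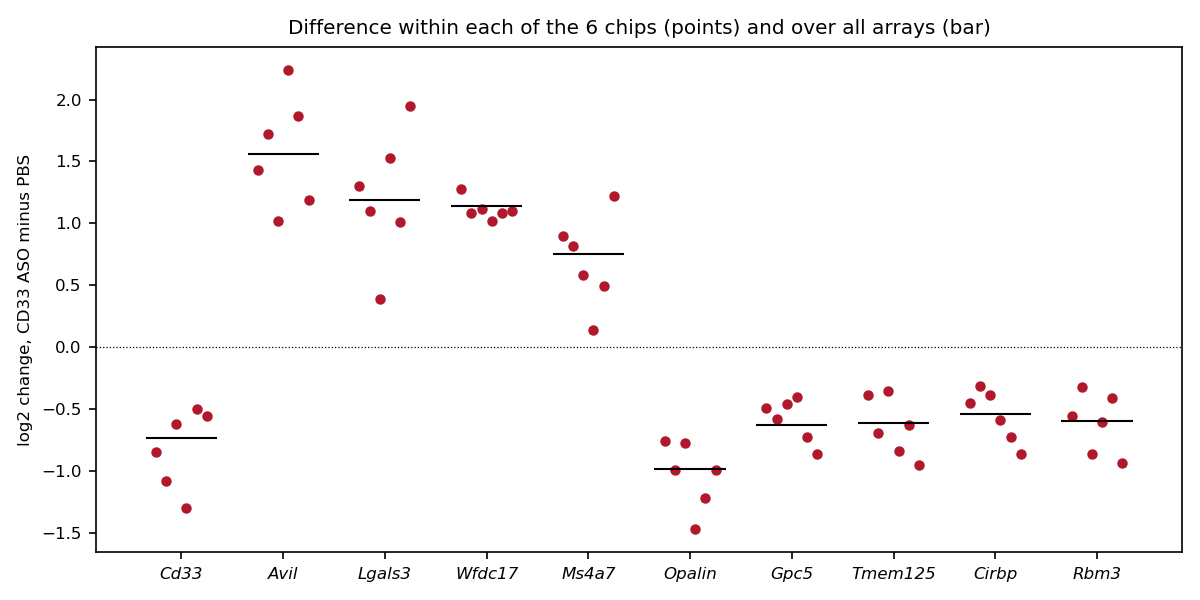
Log2 difference of CD33 ASO minus PBS within each of the 6 chips for 10 genes. Each point is a chip, which held few mice of each group. The Avil points lie between 1.02 and 2.24 and the Cd33 points between -1.30 and -0.50.

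The hippocampus was set beside the cortex in a joint model of the 91 arrays, with mouse as a random block. The CD33 ASO mice were not all the same in both tissues: 10 had both, the mouse of cortical replicate 11 had no hippocampal array, and 2 had a hippocampal array alone. The 9 PBS mice had both. Cd33 changed by -0.71 in cortex and -0.89 in hippocampus. Avil changed by 1.46 in cortex and 1.60 in hippocampus, and Opalin by -0.97 in cortex and -0.79 in hippocampus. In hippocampus 167 of 15228 probes were called (1.1%), against 149 in cortex in this joint model, and 37 were called in both. Of the 149 probes called in cortex, 129 had the same sign in hippocampus. Agreement of sign was not counted over all probes, and most mice gave both tissues, so the hippocampus is not an independent repeat. The difference between the tissues passed at 7 probes (0.046%), each close to the threshold. Fgf5, a growth factor, had 0.28 in cortex and -0.29 in hippocampus, and Rtl3, a gene derived from a retrotransposon, had 0.05 in cortex and -0.66 in hippocampus (adjusted p of the difference 0.0498 for each). Leaving out replicate 3 of both tissues left 0 such probes, with 1162 at an unadjusted p under 0.05. With the 44 mice that had both tissues, a choice made after seeing the data, 12 probes passed, 6 of the 7 among them. Slc5a7 had -0.61 in cortex and 0.01 in hippocampus, and its difference did not pass (adjusted p = 0.119).

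**Figure D5:**
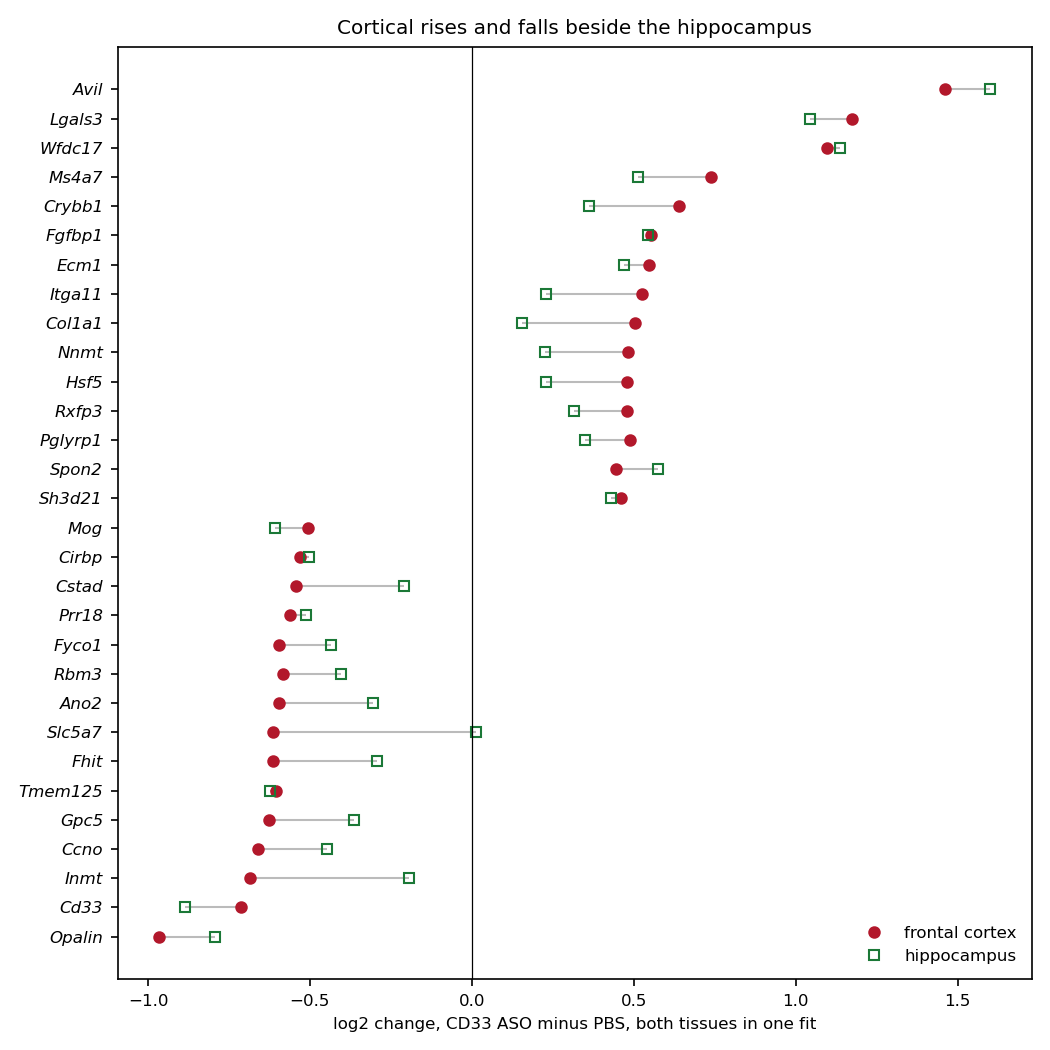
Log2 change of CD33 ASO minus PBS in cortex and in hippocampus for the 30 genes with the largest cortical changes, from the joint model. Avil lies at 1.46 in cortex and 1.60 in hippocampus, and Slc5a7 at -0.61 in cortex and 0.01 in hippocampus.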

How the data were processed

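Total RNA was hybridised to Illumina mouse bead arrays. The deposited table holds an intensity and a detection p-value for 25697 probes per array, per the file headers. BeadStudio, GenomeStudio and Partek were used, per the submitters' processing notes. A value table that the authors deposited, on a log2-like scale, served as an alternative. Groups came from the labels, and replicates are separate mice. From the intensities, limma 3.58.1 (R 4.3.3, statmod 1.5.0) corrected the background using the detection p-values (offset 16), quantile-normalised the 45 cortical arrays and took log2. The offset understates the fold of dim probes. Probes detected at p under 0.05 on at least 9 cortical arrays were tested, and Cd33, App and Thy1 whatever their detection. A mean per group was fitted over all 4 groups, so that they share an estimate of spread, with empirical Bayes moderation (trend, robust), and two-sided p-values were adjusted by Benjamini-Hochberg over all probes. Precision is limited by the number of arrays. Arrays correlated at 0.965 to 0.994, and none was counted as a duplicate.

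Array annotation named 16814 probes with 1 gene symbol and left 8883 without. Genes named are Cd33, App, Thy1 and Avil, the 15 largest rises and 15 largest falls among called genes, up to 3 genes of smallest p in each of 38 gene lists and the 5 genes of smallest p for the tissue difference. Genes of counts of 5 or fewer are also named. In lists a gene stands by its brightest probe. The members and lists were chosen with earlier results of these data known, and 3 lists were added after values were seen. The procedure was tested on simulated data. Alternatives covered background correction, centring, filters, array weights, chip, day and replicate blocks, the groups fitted and each replicate left out. Intervals are 95%.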

Additional observations from a re-analysis of the deposited data

Results flagged for a closer look

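Among 79 probes of named genes, 5 had a PBS array far from the other 8 by Dixon's criterion, where chance flags about 1 in 20 groups. For Lgals3, PBS replicate 4 read 8.57, with the next array at 7.77. For Opalin, PBS replicate 1 read 11.0, with the next at 10.87. For Fyco1, PBS replicate 1 read 8.04, with the next at 8.43. For Cst7, PBS replicate 2 read 9.00, with the next at 9.89. For Tspan2, PBS replicate 5 read 10.19, with the next at 9.97.

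The difference between cortex and hippocampus in the change after CD33 ASO passed for 5 named genes, each with a limma adjusted p of 0.0498. They were named as the 5 of smallest p. Without the mouse block, or without CD33 ASO replicate 3 of both tissues, 0 probes passed. Cortex minus hippocampus was 0.38 for Galnt9, an enzyme of O-glycosylation (0.29 in cortex, -0.08 in hippocampus). It was 0.25 for Lgi1, a secreted synaptic protein (0.12 and -0.13), and 0.71 for Rtl3 (0.05 and -0.66). It was 0.35 for Rap2a, a small GTPase (0.17 and -0.18), and 0.57 for Fgf5 (0.28 and -0.29).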

How the results depend on the processing

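The 195 calls against PBS became 129 with median centring, 91 with the compared groups fitted alone and 115 to 248 with each replicate left out in turn. Without CD33 ASO replicates 3 and 11 together they became 125. With the replicate block 150 were called, and 118 on the same arrays without the block. The numbers did not pair the mice: correlations of same-numbered deviations ran from -0.10 to 0.44, 4 of 9 pairs were over 0.1, and 1 array correlated best with its own number. Leaving out 3 and 11 together, the unblocked fit on those arrays and leaving out CON ASO replicate 12 were chosen after seeing the data. The count stayed between 145 and 290 without background correction, with the submitters' values, with no or a stricter filter, with weights, with chip or day as a block, without trend, and by brightest probe. The Cd33 change stayed at -0.73 with the compared groups alone but missed the threshold (adjusted p = 0.0643). It ran from -0.81 to -0.60 with single replicates left out (adjusted p 0.00192 to 0.0212). Of the 30 ranked genes, 22 to 30 kept their call with a replicate left out. With the compared groups fitted alone, 20 of the 30 kept it. Lost there were the calls of Cd33, Lgals3, Crybb1, Ecm1, Hsf5, Pglyrp1, Spon2, Slc5a7, Ano2 and Mog. Among other genes named above, Mag, Jun, Col4a2, Col18a1, Chat and Aspdh also lost theirs in that fit, as did a probe of Cdk10. The 8 calls shared with CD33 ASO minus CON ASO became 4 with median centring, 14 with the replicate block, 5 without trend and robust fitting, 16 without CON ASO replicate 12, and 4 to 11 with a replicate left out. The 7 calls between tissues became 12 with the mice that had both tissues, 0 without the mouse block and 0 without replicate 3, with 884 and 1162 probes at an unadjusted p under 0.05 by limma. Thy1, at -0.04 and not called, was 0.025 without replicates 3 and 11, and ran from -0.059 to 0.024 with single replicates left out, the highest without CD33 ASO replicate 3. Its signal was tied at 14.84 on several CD33 ASO and PBS arrays after quantile normalisation, so small differences in Thy1 are not resolved. Where no value above shows it, the cause was not tested. Probes near background limit the folds of dim genes.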
